A study of Mus musculus with 6 samples.

Results

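The genes described here encode ion and metal transporters of 8 solute carrier families: the bicarbonate transporters (Slc4), the sodium/calcium exchangers (Slc8), the sodium/hydrogen exchangers (Slc9), the cation-chloride cotransporters (Slc12), the potassium-dependent sodium/calcium exchangers (Slc24), the anion transporters (Slc26), and the zinc transporters of the Slc30 and Slc39 families. Members were taken by gene symbol, as every symbol of these families except Slc4a5, in a choice made with earlier results of these data known. They numbered 68 of the 16060 rows of the deposited table. Slc4a5 is given below with the choroid plexus markers and enters no count or median of the members. RNA-seq of whole hippocampus (HIPP) from adult male C57BL/6 mice was compared between 3 control mice injected with saline and 3 mice injected with escalating doses of methamphetamine (MA) over consecutive weeks, both by the intraperitoneal route and with 1 library per mouse. Mice of both groups went through the open field and elevated plus maze and were killed directly afterwards. Groups and directions follow the column labels. The deposited values lie on a log scale read as log2 of RPKM (reads per kilobase of transcript, scaled to library size) plus 1, and had been brought to a common distribution between libraries, and sequencing depth is unknown.

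Solute carriers move ions and metals across membranes by coupling them to another gradient. Bicarbonate transporters and sodium/hydrogen exchangers set the pH of neurons, glia and endosomes, the cation-chloride cotransporters set the chloride gradient on which GABA-mediated inhibition depends, and the calcium exchangers clear calcium after activity. In the hippocampus, zinc is packed into the glutamatergic vesicles of mossy fiber terminals. Slc30 proteins move zinc out of the cytosol, into vesicles or out of the cell, and Slc39 proteins move zinc or other divalent metals into the cytosol.

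Levels differed widely between members. The highest mean level belonged to Slc12a5, the neuronal potassium-chloride cotransporter KCC2, with a mean of 102.2 RPKM in the control libraries, followed by Slc8a2, a sodium/calcium exchanger of neurons, with 89.7 RPKM. Of the 68 members, 54 passed the filter on low values, which asked for 0.5 RPKM or more in 3 or more of the 6 libraries, and 14 did not. All Slc8 and Slc30 members passed.

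The region before a RefSeq transcript start is shown for 3 members on which the results turn: Slc4a2, the member that passed the adjusted threshold, Slc8a1, whose MA libraries lay farthest apart, and Slc30a1, a classic target of the zinc-sensing factor MTF-1. The sequences are from RefSeq on GRCm38.p6, in lower case, 5′ to 3′ on the strand of the gene, and outside the exons of GENCODE release M21. The Slc4a2 window is the first of 2 in RefSeq and lies inside the span of the gene, since other annotated transcripts start upstream of it. Capitals mark CG dinucleotides in Slc4a2 and Slc8a1, and the metal response core (TGCACNC or TGCGCNC on either strand, searched without regard to other motifs) in Slc30a1.
Slc4a2, chr5:24424982-24425231, plus strand: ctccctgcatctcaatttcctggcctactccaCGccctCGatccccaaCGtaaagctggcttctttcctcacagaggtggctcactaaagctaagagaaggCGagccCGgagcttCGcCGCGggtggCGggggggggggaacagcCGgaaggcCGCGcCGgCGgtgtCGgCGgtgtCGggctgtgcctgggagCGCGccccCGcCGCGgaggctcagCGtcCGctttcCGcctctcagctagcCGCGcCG
Slc8a1, chr17:81738388-81738637, minus strand: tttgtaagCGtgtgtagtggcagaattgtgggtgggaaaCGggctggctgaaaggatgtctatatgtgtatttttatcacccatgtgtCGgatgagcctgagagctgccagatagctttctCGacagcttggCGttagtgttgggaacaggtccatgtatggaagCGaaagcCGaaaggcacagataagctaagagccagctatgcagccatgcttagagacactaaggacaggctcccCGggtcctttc
Slc30a1, chr1:191906531-191906766, plus strand: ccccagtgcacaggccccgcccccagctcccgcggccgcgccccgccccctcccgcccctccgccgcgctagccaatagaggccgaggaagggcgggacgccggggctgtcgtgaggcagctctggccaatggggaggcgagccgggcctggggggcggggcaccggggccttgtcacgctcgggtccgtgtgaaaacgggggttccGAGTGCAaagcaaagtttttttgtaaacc

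The Slc4a2 window holds 28 CG dinucleotides and the Slc8a1 window 8, where the median over all 32851 RefSeq windows of 250 bases is 6. Windows were found for 53 of the 68 members, 68 windows in all. The metal response core was present in 30.9% of the members' windows, in 44.0% of the 25 windows of the zinc transporter genes, and in 21.4% of all windows. The GC box GGGCGG, searched in the same way, was present in 44.1%, 60.0% and 32.7% of them. These are matches of letters and say nothing of binding.

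Only Slc4a2 passed an adjusted p-value under 0.05 among the 54 tested members (limma, Benjamini-Hochberg adjustment over all 13321 tested rows), and it was higher in the MA libraries. Over all tested rows, 0.263% passed. An unadjusted p-value under 0.05 was reached by 7 members, or 13.0%, where 10.4% of all tested rows reached it. Of these, 5 were higher in MA (among them Slc4a2, Slc4a3, Slc12a4 and Slc39a4; the background in this direction is 4.99%) and 2 were lower (Slc8a2 and Slc30a3; background 5.46%). The members' median log2 fold change was 0.042 and that of all tested rows -0.010. The share of members at the unadjusted threshold was thus near that of the whole table.

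**Figure D1:**
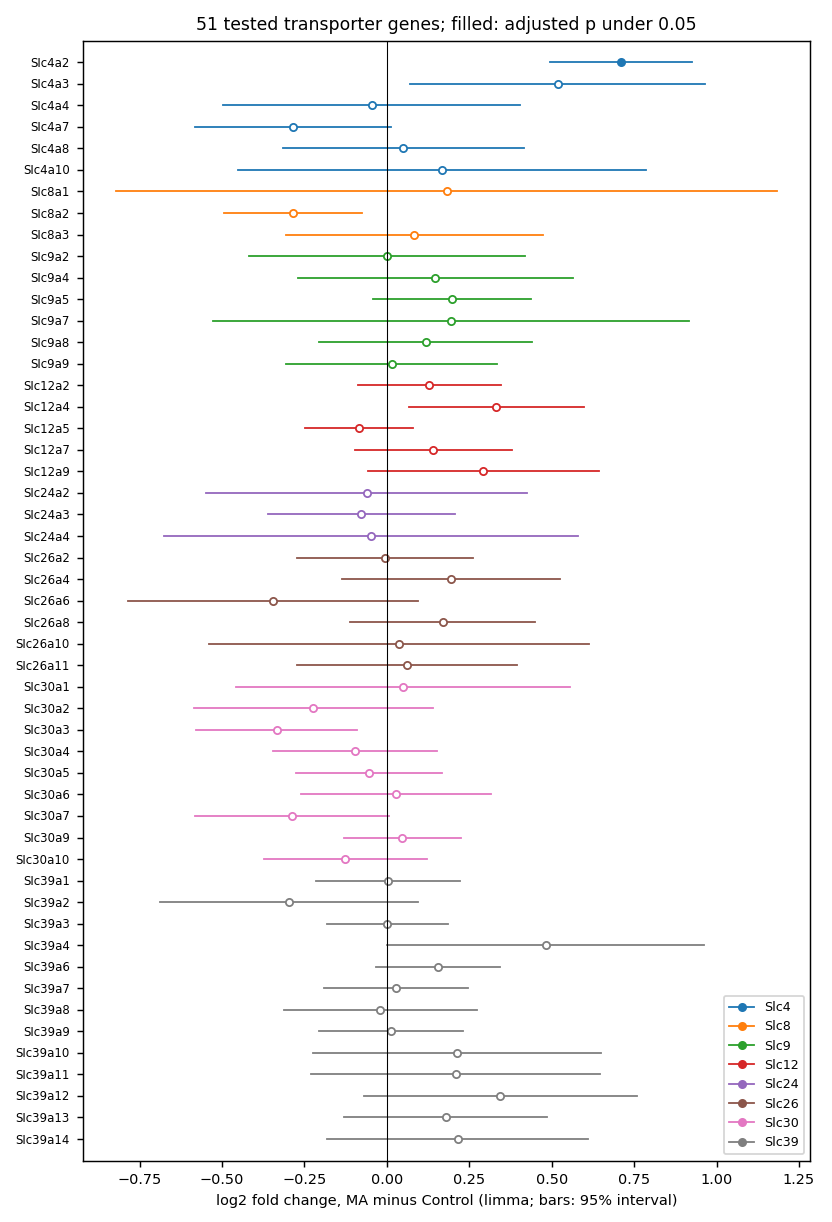
Log2 fold change (MA minus Control, horizontal axis) of 51 tested transporter genes (vertical axis), colored by family, with bars for the 95% interval of the limma fit and a filled point for an adjusted p under 0.05. Slc4a2 is the only filled point, at 0.71, and the interval of Slc8a1 is the widest, from -0.82 to 1.18.

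In 10 members (18.5%) the 3 MA values lay entirely on one side of the 3 control values, where the share over all tested rows was 17.5%. Of these 6 lay above (background 7.32%), among them Slc4a2, Slc9a5, Slc12a4, Slc12a7 and Slc39a6, and 4 lay below (background 10.2%), Slc4a7, Slc8a2, Slc12a5 and Slc30a3. A two-sided exact permutation test of each of these genes returned p = 0.1, which is the lower limit for 3 libraries against 3. For 30 of the 54 members, the 95% interval of the difference lay within 0.5 of 0 on the log2 scale.

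Among the bicarbonate transporters, 6 of 9 members were tested and their median log2 fold change was 0.11, which became 0.32 without MA 3, 0.064 without MA 1 and 0.067 without Control 2. Slc4a2 (ENSMUSG00000028962, chr5:24423837-24440950, plus strand in GENCODE M21) encodes AE2, which exchanges chloride for bicarbonate and is a basolateral transporter of the choroid plexus epithelium, the tissue that secretes cerebrospinal fluid. On the deposited log2 scale Slc4a2 was 3.36, 3.33 and 3.30 in Control 1, 2 and 3, and 4.16, 3.94 and 4.03 in MA 1, 2 and 3. Every MA value lay above every control value, by more than the spread within either group. Slc4a2 rose by 0.71 on the log2 scale (standard error, SE, 0.092; 95% interval 0.50 to 0.93; adjusted p = 0.0394 by limma), or from a mean of 9.07 to 15.5 RPKM. Leaving out single libraries kept the difference between 0.65 and 0.76, and the call was lost in 5 of the 6 fits, all except the one without MA 3. Blocking on replicate number gave an adjusted p of 0.215. Slc4a2 overlaps 2 annotated genes on the other strand, Fastk and the small nuclear RNA gene Gm22333, and no source used here says whether strand was used in counting. Fastk differed by -0.098 (SE 0.19), with overlapping groups, and Gm22333 was not examined.

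Markers of choroid plexus were also higher in the MA libraries. All 13 genes of a list of choroid plexus markers were higher in every MA library than in every control library, where 7.32% of all tested rows were. Of the 13 markers, 7 had a limma adjusted p under 0.05 (0.263% of all tested rows did), and the median log2 fold change was 1.70. The list includes Slc4a5, the family member left out by the rule, which differed by 1.70 (limma adjusted p = 0.0315). This and the other marker lists were made with earlier results of these data known, so their separation is no independent result. None of the 13 was at 0 in all libraries. Their summed level was 101.8, 217.9 and 479.4 RPKM in the control libraries, and 1940, 2530 and 5327 RPKM in the MA libraries. Ttr, the most abundant of the 13 in every library, weighs most in these sums, and the order of the MA libraries differed between markers. Within the groups the order of Slc4a2 was not that of these sums: Control 3, with the highest sum of the controls, had their lowest Slc4a2 value, and MA 3, with the highest sum of all, had a Slc4a2 value between those of MA 1 and MA 2. How far choroid plexus in the dissected tissue contributes to the Slc4a2 values was not tested. In bulk tissue, more cells of a type and more RNA per cell cannot be told apart.

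**Figure D2:**
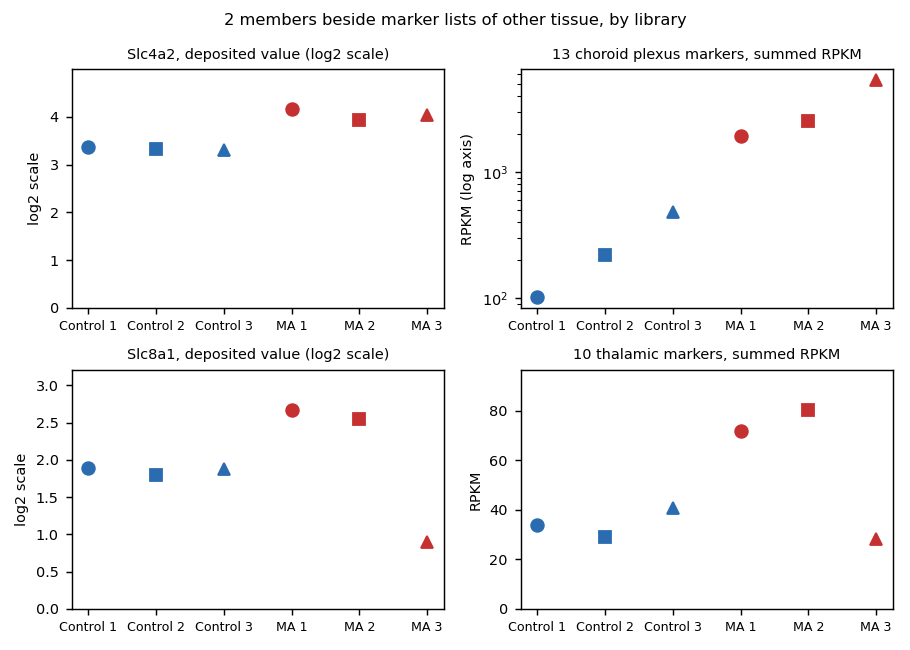
Values by library (horizontal axes) of Slc4a2 and Slc8a1 on the deposited log2 scale (left panels), beside the summed RPKM of 13 choroid plexus markers on a log axis (upper right) and 10 thalamic markers (lower right), with control libraries in blue and MA libraries in red. Slc4a2 and the choroid plexus sum are higher in all 3 MA libraries, whereas Slc8a1 and the thalamic sum are high in MA 1 and MA 2 and at their lowest in MA 3. The thalamic sum of MA 3 (28.1 RPKM) is close to that of Control 2 (28.8 RPKM), while Slc8a1 in MA 3 (0.90) is well below its lowest control (1.80).

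Slc4a3 encodes AE3, the chloride/bicarbonate exchanger of neurons. Its values were 4.43, 4.65 and 4.77 in the control libraries and 5.41, 5.29 and 4.70 in MA 1, 2 and 3. MA 3 lay inside the control range. The log2 fold change was 0.52 (SE 0.19, adjusted p = 0.417 by limma). Without MA 3 it was 0.73 (adjusted p = 0.0372), so the call depends on the library labelled MA 3.

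The sodium-coupled bicarbonate transporters bring bicarbonate into cells and raise the intracellular pH. Slc4a4 (NBCe1, the main such transporter of astrocytes) was 4.05, 3.87 and 4.26 in control and 4.36, 4.06 and 3.62 in MA libraries. Slc4a10, expressed in neurons and choroid plexus and the most abundant member of its family, was 4.94, 4.83 and 5.20 in control and 5.60, 5.35 and 4.51 in MA libraries. In both genes MA 1 was the highest and MA 3 the lowest of the 6 libraries, and the log2 fold changes were -0.046 and 0.17, which turned to 0.15 for Slc4a4 without MA 3 and to -0.056 for Slc4a10 without MA 1. Slc4a8 (NDCBE, found at presynaptic terminals) had the opposite order, with 3.08, 3.05 and 3.03 in control and 2.83, 3.03 and 3.44 in MA libraries. Slc4a7 (NBCn1) was 2.90, 2.62 and 2.62 in control and 2.36, 2.60 and 2.33 in MA libraries. The groups did not overlap for Slc4a7, but their nearest values lay close together, and the difference of -0.28 did not pass (SE 0.13, adjusted p = 0.497 by limma).

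Among the cation-chloride cotransporters, 6 of 8 members were tested, with a median log2 fold change of 0.13 (0.21 with a pseudocount of 0.1, 0.084 with no filter). The Slc12 family sets neuronal chloride, with NKCC1 (Slc12a2) bringing chloride in and the KCC transporters carrying it out. Slc12a5 (KCC2) was 6.62, 6.73 and 6.71 in control and 6.62, 6.62 and 6.57 in MA libraries. All MA values were below the controls, but the nearest values are equal when rounded, and the log2 fold change of -0.085 had a 95% interval of -0.25 to 0.079. Slc12a2 was 3.27, 3.40 and 3.26 in control and 3.40, 3.39 and 3.53 in MA libraries, with overlapping groups and a log2 fold change of 0.13 (95% interval -0.089 to 0.35). Neither gene passed the adjusted threshold.

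The level of Slc12a2 relative to Slc12a5, a comparison chosen after the values were seen, is a common measure of the balance between chloride entry and exit. The log2 difference between the genes was -3.35, -3.33 and -3.45 in the control libraries and -3.22, -3.23 and -3.04 in the MA libraries. It was thus less negative in each MA library. The difference between the group means was 0.21, for which p = 0.1 in a two-sided exact permutation test, the lower limit for 3 libraries against 3. With the comparison chosen after the values were seen, this p-value is descriptive only. Slc12a2 is also a transporter of choroid plexus epithelium, whose markers were higher in the same libraries, and their part in this difference was not tested.

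Among the other potassium-chloride cotransporters, Slc12a4 (KCC1, present in many cell types) was 2.75, 2.88 and 2.68 in control and 3.15, 2.93 and 3.22 in MA libraries, a log2 fold change of 0.33 (SE 0.11, adjusted p = 0.375 by limma). Slc12a7 (KCC4) was low, at 0.77, 0.72 and 0.81 in control and 0.88, 0.97 and 0.87 in MA libraries. The groups did not overlap for either gene, and Slc12a7 differed by 0.14. Slc12a9, a member of the family that is not one of the potassium-chloride cotransporters, had a log2 fold change of 0.29 with overlapping groups.

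**Figure D3:**
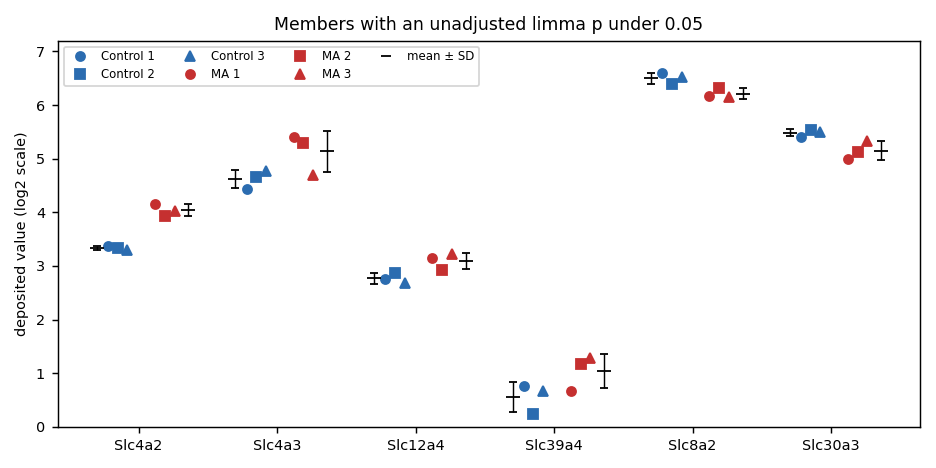
Deposited log2 values (vertical axis) of 6 members with an unadjusted limma p under 0.05, with the 3 control libraries in blue, the 3 MA libraries in red, 1 symbol per replicate, and the mean ± SD of each group in black. Slc4a2 separates the groups by the widest margin, and the Slc4a3 value of MA 3 lies among the controls.

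Of the sodium/hydrogen exchangers, 8 of 9 members were tested, with a median log2 fold change of 0.13. This median became 0.048 without Control 3 and 0.053 without MA 2. Slc9a5, an exchanger of neurons, was 1.76, 1.70 and 1.78 in control and 1.88, 1.89 and 2.06 in MA libraries, without overlap, for a log2 fold change of 0.20. The exchangers of organelles Slc9a7, Slc9a8 and Slc9a9 had log2 fold changes of 0.20, 0.12 and 0.014, and Slc9a2 and Slc9a4 had 0.00089 and 0.15, all with overlapping groups.

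The calcium exchangers of the Slc8 and Slc24 families, which remove calcium from the cytosol in exchange for sodium, had 6 tested members of 8. Slc8a2 (NCX2), at a high level in hippocampal neurons, was 6.59, 6.39 and 6.52 in control and 6.17, 6.32 and 6.15 in MA libraries. Every MA value was lower, with a log2 fold change of -0.28 (SE 0.089, 95% interval -0.49 to -0.077, adjusted p = 0.345 by limma). Slc8a3 (NCX3) was lower in abundance and had a log2 fold change of 0.083 with overlapping groups. Slc8a1 (NCX1; chr17:81373105-81738377, minus strand), the exchanger also known from heart muscle, was 1.90, 1.80 and 1.88 in the control libraries, 2.67 and 2.55 in MA 1 and MA 2, and 0.90 in MA 3. Its span overlaps 2 other annotated genes. The controls lay close together, MA 1 and MA 2 lay above them and MA 3 below. The log2 fold change of 0.18 had a standard error of 0.43, larger than the difference itself. It was -0.13 without MA 1 and -0.073 without MA 2. Without MA 3 it was 0.75 (SE 0.095, adjusted p = 0.0274 by limma), which would be a call.

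The potassium-dependent exchangers showed no member with separate groups. Slc24a3, the most abundant of them, was 5.82, 5.68 and 5.56 in control and 5.59, 5.82 and 5.42 in MA libraries. Slc24a2, a neuronal exchanger, was 5.06, 4.88 and 5.05 in control and 5.17, 5.22 and 4.42 in MA libraries, with MA 3 again below all other libraries. The log2 fold changes of Slc24a2, Slc24a3 and Slc24a4 were -0.061, -0.077 and -0.049. Without MA 3 the direction of Slc24a2 and Slc24a3 turned, to 0.20 and 0.016.

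Of the anion transporters, 6 of 11 members were tested, the lowest share of the 8 families, their median log2 fold change was 0.049 (0.17 without Control 1, -0.038 without Control 3), and in none did the groups separate. Slc26a6, which exchanges chloride for bicarbonate or oxalate, was the most abundant, with 3.39, 3.61 and 3.36 in control and 2.68, 3.25 and 3.39 in MA libraries. Its value in MA 1 stood well below the rest, and the log2 fold change of -0.35 did not pass the threshold (SE 0.19, adjusted p = 0.586 by limma). Slc26a2, a sulfate transporter, was 1.15, 1.06 and 1.02 in control and 0.96, 1.21 and 1.04 in MA libraries, a difference of -0.0056. The other tested members, Slc26a4, Slc26a8, Slc26a10 and Slc26a11, had log2 fold changes of 0.20, 0.17, 0.037 and 0.061.

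The zinc transporter families differed in their medians. Of the 9 Slc30 genes, 6 were lower in MA and the median log2 fold change was -0.097. Of the 13 tested Slc39 genes, 11 were higher and the median was 0.16. The higher Slc39 genes include Slc39a1, Slc39a3, Slc39a7 and Slc39a9, at only 0.0034, 0.0010, 0.028 and 0.012. Over all tested rows 47.3% were higher, and over all tested members 64.8%. A positive median was not particular to Slc39, since those of Slc9 and Slc12 were both 0.13. Leaving out 1 library moved the Slc39 median to 0.075 (without MA 2), 0.079 (without Control 2), 0.089 (without MA 3) or 0.090 (without MA 1), and the Slc30 median to -0.16 (without MA 1) or -0.061 (without MA 3). No gene of either family passed the adjusted threshold, and the difference between the families was not tested.

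Slc30a3 (ZnT3), which loads zinc into synaptic vesicles and is abundant in dentate granule and pyramidal neurons, was the Slc30 member with the largest difference (chr5:31086106-31108237, minus strand). Its span overlaps 2 other annotated genes, whose reads cannot be told apart here. Its values were 5.41, 5.54 and 5.50 in control and 4.99, 5.12 and 5.34 in MA libraries. Every MA value was below every control value, MA 3 by the smallest margin. The log2 fold change was -0.33 (SE 0.10, 95% interval -0.58 to -0.089, adjusted p = 0.347 by limma), or from 43.8 to 34.6 RPKM on average. Without MA 3 it was -0.43 (adjusted p = 0.0484). Of 8 marker genes of hippocampal neurons, 7 had lower MA means too, their median difference being -0.20 on the log2 scale, and none passed the adjusted threshold. In 2 of the 8, Neurod6 (-0.43) and Wfs1 (-0.30), every MA value lay below every control value, and in the others the groups overlapped. Over all tested rows, 10.2% lay below in this way. The summed level of the 8 was 2886 to 3918 RPKM in the control and 2647 to 3316 RPKM in the MA libraries, ranges that overlap. Lower MA means were not particular to this list. They were also found in 8 of 9 oligodendrocyte markers (median -0.20), 7 of 7 astrocyte markers (-0.11), 5 of 6 interneuron markers (-0.10) and 4 of 6 microglia markers (-0.12). All tested markers of choroid plexus, thalamus, endothelium and red blood cells had higher MA means. Of all 13321 tested rows, 7025 were lower. The part of neuronal content in the Slc30a3 values was not tested.

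Slc30a1 (ZnT1), which exports zinc across the plasma membrane, was 2.60, 2.57 and 2.71 in control and 3.09, 2.76 and 2.18 in MA libraries. MA 1 and MA 2 were above the controls and MA 3 below, and the log2 fold change of 0.049 turned to -0.16 without MA 1. Slc30a9 had its values within a narrow range (5.09, 5.10 and 5.03 in control, 5.18, 5.08 and 5.10 in MA libraries) and a 95% interval of -0.13 to 0.22. The transporters of the secretory pathway, Slc30a5, Slc30a6 and Slc30a7, had log2 fold changes of -0.055, 0.028 and -0.29, and Slc30a7 had overlapping groups with an unadjusted limma p of 0.0548. Slc30a2, Slc30a4 and Slc30a10 differed by -0.22, -0.097 and -0.13, with overlapping groups.

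Among the zinc importers, Slc39a7 (ZIP7), which releases zinc from the endoplasmic reticulum, was the most abundant, at 5.53, 5.63 and 5.60 in control and 5.45, 5.71 and 5.68 in MA libraries, with a log2 fold change of 0.028. Slc39a6 (ZIP6) was 3.75, 3.70 and 3.79 in control and 3.87, 3.95 and 3.89 in MA libraries, without overlap and with a difference of 0.16 (limma adjusted p = 0.568). Slc39a10 (ZIP10), its closest relative, was 4.14, 4.05 and 4.26 in control and 4.67, 4.50 and 3.92 in MA libraries. Slc39a10 again had MA 1 and MA 2 above and MA 3 below the controls. Slc39a14 (ZIP14), which also imports iron and manganese, was 3.14, 2.95 and 2.97 in control and 3.48, 3.36 and 2.86 in MA libraries. Slc39a4 (ZIP4), the zinc importer of the gut, was near the limit of the filter, at 0.76, 0.24 and 0.67 in control and 0.67, 1.17 and 1.28 in MA libraries. These groups overlapped, and the log2 fold change was 0.48 (SE 0.21, adjusted p = 0.476 by limma). Slc39a1, Slc39a3 and Slc39a9 differed by 0.0034, 0.0010 and 0.012, with 95% intervals within 0.5 of 0. Slc39a2, Slc39a8, Slc39a11, Slc39a12 and Slc39a13 differed by -0.30, -0.020, 0.21, 0.34 and 0.18, with overlapping groups.

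A pattern that the comparison of the groups does not capture ran through several families. In 8 of the 54 tested members (Slc4a10, Slc8a1, Slc9a7, Slc24a2, Slc30a1, Slc39a10, Slc39a11 and Slc39a14), MA 1 and MA 2 lay above every control and MA 3 lay below every control. This is 14.8% of the members, and 8.82% of all tested rows had this order. The reverse order was seen in 1 member, Slc4a8, and in 6.2% of all tested rows. In the 8 genes MA 3 was below the mean of MA 1 and MA 2 by 0.57 to 1.71 on the log2 scale. MA 3 also stood apart over the whole table, with a mean Pearson correlation of 0.978 with the other MA libraries, where the other 5 libraries had between 0.984 and 0.993 with those of their own group.

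**Figure D4:**
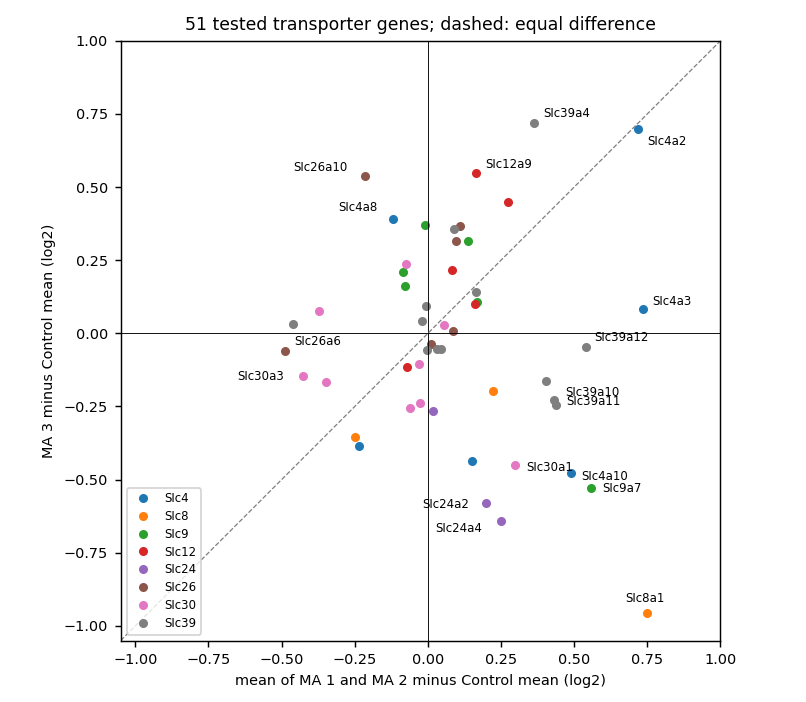
Difference from the control mean on the log2 scale of 51 tested members, for the mean of MA 1 and MA 2 (horizontal axis) and for MA 3 (vertical axis), colored by family, with a dashed line where both are equal. Slc4a2 lies on the line, whereas Slc8a1, Slc4a10, Slc9a7, Slc30a1 and others of the 8 genes lie at the lower right.

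Thalamic markers and exonic length were set beside this pattern. Of 10 markers of thalamus, which borders the hippocampus, 9 were above every control in both MA 1 and MA 2. In MA 3, Rora, Plekhg1 and Synpo2 lay below every control, Gbx2 lay above, and the other thalamic markers lay within the control range. Thus most of the list did not share the fall of MA 3 below the controls. Of 6 endothelial markers 4, and of 7 astrocyte markers 2, were also above every control in both MA 1 and MA 2. The summed level of the thalamic markers was 33.9, 28.8 and 40.6 RPKM in the control libraries, 71.7 and 80.2 RPKM in MA 1 and MA 2, and 28.1 RPKM in MA 3. The 8 genes had exonic lengths between 3359 and 18807 bases (GENCODE, all transcripts merged), with a median of 6260, where the median was 5328 for the tested members and 4501 for all tested rows. The difference of MA 3 from the other MA libraries was more negative at greater exonic length over all tested rows (Spearman's rho = -0.36 across 13309 genes) and over the tested members (rho = -0.22 across 54 genes). Genes share the libraries and are not independent, so these values describe the libraries only. The part of neighboring tissue and of gene length in the pattern was not tested.

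Without MA 3, 4 members passed the adjusted threshold (Slc4a2, Slc4a3, Slc8a1 and Slc30a3), or 7.41% of those tested, where 1.93% of all tested rows did so. At an unadjusted p under 0.05 there were 19 members in this fit, 13 higher and 6 lower, or 35.2% against 23.3% of all tested rows. The difference of Slc39a12 (ZIP12), a zinc importer of brain, was 0.54 in this fit (adjusted p = 0.0643 by limma) and 0.34 with all libraries. With limma sample quality weights, which lower the weight of MA 3, 3 members passed the adjusted threshold (5.56%, where 4.4% of all tested rows did) and 18 the unadjusted one (33.3%, where 26.3% did).

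Genes that control or work with these transporters were given by a list of 36 genes, of which 32 were tested and none passed the adjusted threshold. For the kinases and adaptors of the cation-chloride cotransporters, 10 of 10 were tested, and the median log2 fold change was 0.035. Cab39l, which encodes an MO25 protein that activates the kinases SPAK and OSR1, differed by 0.42 (limma adjusted p = 0.339), and Cul3, the scaffold of the ligase that degrades WNK kinases, by -0.22 (adjusted p = 0.383). Wnk1, the kinase upstream of both, was 6.84, 6.09 and 7.43 in control and 7.57, 7.79 and 5.27 in MA libraries, with MA 1 and MA 2 above and MA 3 below the controls. The carbonic anhydrases, which supply bicarbonate, had 9 of 12 tested with a median of 0.082, and none reached an unadjusted p under 0.05. Among partners of the exchangers, Slc9a3r2, a scaffold of sodium/hydrogen exchangers, differed by -0.31 (limma adjusted p = 0.297) and each MA value lay below the controls. Slc9a3r1, on the same list, differed by 0.14 (limma adjusted p = 0.575) and each MA value lay above them. Over all tested rows, 10.2% lay below and 7.32% above in this way. Tmem163, a zinc transporter of synaptic vesicles, differed by 0.44 (adjusted p = 0.473) with overlapping groups. For zinc buffering, the metallothionein genes Mt1, Mt2 and Mt3 differed by 0.14, 0.16 and -0.22, and Mtf1, which encodes the zinc-sensing factor, by 0.081.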

How the data were processed

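Hippocampal RNA of 3 Control and 3 MA mice was profiled by poly(A) RNA-seq. The methods of the paper name Hisat2 for alignment, featureCounts for counting and FPKM as the unit, whereas the submitters' processing notes name Bowtie 0.12.2 and builds mm8 and mm9. The deposited file carries RPKM in its name, yet holds values from 0 to 12.3, which were read as log2 of RPKM plus 1. Read so, RPKM times exonic length in kilobases summed to 1.78 to 1.88 times the library size that RPKM implies, and to 18.2 to 19.6 times with a natural log. The log transform and the normalization between libraries are not described. All 6 value columns were matched by name, and depth is unknown.

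Rows at 0.5 RPKM or more in 3 or more libraries (13321 of 16060) were tested with limma 3.58.1 in R 4.3.3 (lmFit, eBayes with trend), MA against Control, no covariate, Benjamini-Hochberg adjustment over all tested rows. P-values measure the spread between mice, 3 per group. Fold changes are on the log2(value + 1) scale and understate those of low genes. In 10 simulated tables of 13321 genes with 200 genes altered by 1 log2 unit, 75% (median) were recovered and 5.24% of calls were false. The simulated noise was independent between genes, without the departure of MA 3 or shifts shared by many genes. The planted change exceeds every member's difference (largest 0.71), so these rates do not carry over to the members. Coordinates are from GENCODE M21 (GRCm38), for location only. Members, marker lists and the list of partners were chosen with earlier results of these data known. Named in full were members with an unadjusted p under 0.05 or separate groups, the most abundant of each family, and a fixed set; 3 members that counts and medians include are not reported here by name. Alternatives were other pseudocounts (0.1, 0.01), filters (none, mean of at least 5), scalings, variance models, sample quality weights, a replicate block and leaving out each library. Same-numbered libraries had no shared source in the labels.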

Additional observations from a re-analysis of the deposited data

How the results depend on the processing

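Of the 54 tested members, 1 passed the adjusted threshold, and 5 higher and 2 lower members reached an unadjusted p under 0.05. With no filter 0 passed the adjusted threshold (limma, 5 higher and 2 lower at an unadjusted p under 0.05), and the adjusted p of Slc4a2 was 0.0763. With sample quality weights, which gave MA 3 a weight of 0.194, 3 passed (Slc4a2, Slc4a3 and Slc30a3), with 12 higher and 6 lower at the unadjusted threshold. With the replicate number as a block 0 passed, with 2 higher and 1 lower. The block rests on numbers only: deviations of same-numbered libraries correlated at -0.197, -0.242 and -0.337. With each library left out in turn, from 0 to 4 passed, from 2 to 13 were higher and from 1 to 6 were lower at the unadjusted threshold, and the median of all members ranged from 0.026 to 0.080, the highest count and median each without MA 3. Without any other library, 0 passed the adjusted threshold and 2 or 3 were higher at the unadjusted one. Shares over all tested rows are given above for the unaltered fit, the fit without MA 3 and the fit with quality weights. For the other alternatives these shares were not computed, so their counts cannot set the members apart from the whole table. Slc4a2 stayed higher in all 15 alternatives and kept its call in 8, with adjusted p from 0.00926 to 0.215. Slc4a2, Slc4a3 and Slc30a3 kept their direction in every alternative. Slc8a1, called only without MA 3 (0.75), turned to -0.13 without MA 1 and -0.073 without MA 2, neither of which passed the threshold. Among values that did not pass the threshold, signs did turn: 3 of the 8 family medians changed sign under at least 1 alternative, as did 11 members followed gene by gene. The medians turned to -0.13 for Slc8 without MA 1, -0.038 for Slc26 without Control 3 and 0.20 for Slc24 without MA 3. A minimum mean of 5 left 1 gene each of Slc8 and Slc26, at -0.28 and -0.35, which are no longer medians of a family. Of 120 family medians recomputed, 17 moved by more than the spread between libraries. Of 26 other members followed in this way, Slc4a3 and Slc30a3 gained the call with quality weights and without MA 3, and Slc8a1 without MA 3. The causes were not tested. Without counts, depth sets no stated limit.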

Other observations

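The 14 members under the filter had values between 0 and 0.62 on the deposited log2 scale in every library. They were Slc4a1, Slc4a9, Slc4a11, Slc9a3, Slc12a1, Slc12a8, Slc24a1, Slc24a5, Slc26a1, Slc26a3, Slc26a5, Slc26a7, Slc26a9 and Slc39a5. Several of them are known from other tissues: Slc12a1 (NKCC2) and Slc9a3 (NHE3) from kidney, Slc26a5 (prestin) from cochlear hair cells, and Slc24a1 from rod photoreceptors.

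Slc4a1 encodes the band 3 anion exchanger of red blood cells. Its values were 0.066, 0.068 and 0.21 in the control libraries and 0.14, 0.090 and 0.29 in the MA libraries, and the groups overlapped. All 5 red blood cell markers were higher in every MA library than in every control library, with a median log2 fold change of 1.06. The share above in this way over all tested rows was 7.32%. Their summed level was 1599 to 2024 RPKM in the control libraries and 3319 to 4378 RPKM in the MA libraries. This list too was made with earlier results of these data known, so the separation is no independent result.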
